A study of Physcomitrium patens with 12 samples.

Results

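The 200 genes described here were abundant in every sex organ library of the moss Physcomitrium patens and had similar mean levels in its male and female organs, in the mutant and in wild type. They were chosen from 32926 genes by their levels. A level is given in CPM, the count of a gene divided by all counts of its library and scaled to 1000000. A gene was called even where its highest of 4 group means was less than 2 times its lowest, and 9586 genes were even. The 200 even genes with the highest minimum over the 12 libraries were then taken. These values are therefore a description of the choice, and no difference between groups in these genes was used as a test of it.

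Antheridia are the male organs of mosses, in which swimming sperm form inside a jacket of sterile cells, and archegonia are the flask-shaped female organs that each hold an egg. Genes with steady transcript levels across cell types are often called housekeeping genes. In plants they are typically found among genes for translation, protein turnover, the cytoskeleton and energy supply, and some serve as references when levels of other genes are scaled. Gene identifiers of the count table are not paired with names or products in the files or in the RefSeq gene table used (assembly ASM5946719v1), where 0 of them matched, so no product, role or sequence is given beside an identifier.

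RNA of mature organs of the strain Gransden was sequenced, from 8 pooled organs per library taken at day 18 after sporophyte induction began. There were 3 libraries in each of 4 groups: antheridia of the PpPINC mutant line pinC#29, antheridia of wild type, archegonia of the same mutant line and archegonia of wild type. All mutant libraries came from this line only, and effects of the mutation and of anything else that sets this line apart cannot be told apart. Libraries were made with Smart-seq2, which does not mark strand. PIN proteins export the hormone auxin from cells. The files name no marker of either organ, so the organ labels were not checked against named markers.

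Total counts were between 19038033 and 39833129 per library. Mutant antheridia 2 and 3 and mutant archegonia 3 stood apart with 19088, 20359 and 19803 detected genes, against 21654 to 24802 in the other libraries. Pp3c10_24880, a candidate for the targeted gene that the files do not name, had 66, 0 and 0 counts in mutant antheridia and 66, 39 and 165 counts in wild type antheridia. It had 3, 2 and 0 counts in mutant archegonia and 94, 38 and 56 counts in wild type archegonia. The library labelled mutant antheridia 1 thus went against its label for this candidate, and values without it and without the libraries with few detected genes are given below. The lowest count of any of the 200 genes in any library was 2738, where counting error alone is 1.91% of the value.

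Most genes with so high a minimum level were also even. This share follows in part from the measure, since a gene low in any group cannot have a high minimum. The last gene taken, Pp3c10_8500, had a minimum of 130.8 CPM over the 12 libraries. Of 259 genes with at least its minimum, 200 were even (77.2%) and 59 were not. Pp3c10_8500 came after Pp3c12_10590 and Pp3c12_4500 at 131.1 and 131.2 CPM. The first even genes left out were Pp3c12_14940, Pp3c10_21340 and Pp3c22_2920, at 130.6, 128.4 and 128.0 CPM. At the evenness limit, the genes just inside were Pp3c1_12850, Pp3c18_20180 and Pp3c18_18670, with ratios of the highest to the lowest group mean of 1.998, 1.997 and 1.994. Just outside were Pp3c1_32170, Pp3c10_20300 and Pp3c8_3540, with ratios of 2.01, 2.03 and 2.04. All 200 genes passed the filter on low counts that the fits below used.

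**Figure D1:**
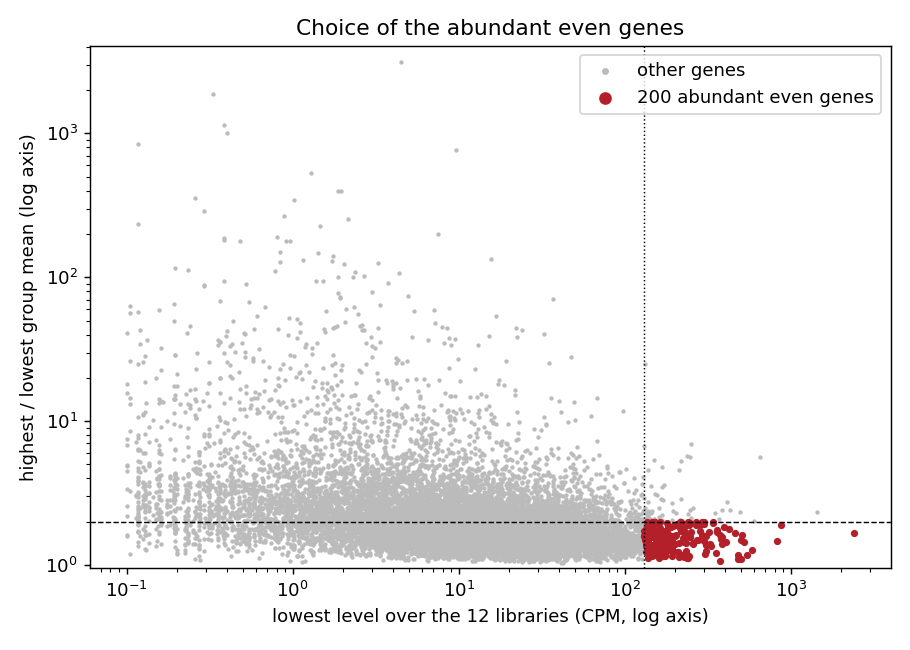
The lowest level over the 12 libraries in CPM is on the x axis and the ratio of the highest to the lowest group mean is on the y axis, both log axes, with 1 point per gene above 0.1 CPM in every library. The 200 genes lie below the dashed line at a ratio of 2 and on or right of the dotted line at 130.8 CPM, where 59 other genes lie above the dashed line.

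The gene with the highest minimum, Pp3c1_32280, had 3440.1, 2403 and 7047 CPM in the mutant antheridia, 7376, 7194 and 7084 CPM in the wild type antheridia, 4658, 3502 and 12681 CPM in the mutant archegonia and 3961, 8276 and 4921 CPM in the wild type archegonia. It was high in mutant archegonia 3, low in mutant antheridia 2 and nearly the same in all wild type antheridia. Its group means were 4297 ± 2438, 7218 ± 147, 6947 ± 4999.7 and 5719 ± 2266 CPM in the same order (SD, n = 3 each). By CPM the mutant and wild type libraries overlapped in archegonia but not in antheridia, where every library labelled mutant was lower. The closest were mutant antheridia 3 at 7047 and wild type antheridia 3 at 7084 CPM. TMM multiplies each library total by a factor set from the bulk of the genes. These factors were 0.855 and 0.941 for the 2 libraries, and with them the order of their levels turned round. This gene alone held 6.84% of the counts of the 200 genes. CPM does not take the length of a gene into account, so the order of these levels is not an order of transcript numbers.

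The next 2 genes by minimum level showed an organ lean within the limit. Pp3c12_14250 had 1018, 1587 and 2155 CPM in the mutant antheridia, 867, 1397 and 881 CPM in the wild type antheridia, 1805, 1701 and 1257 CPM in the mutant archegonia and 2359, 1962 and 1623 CPM in the wild type archegonia. Its levels were lower in wild type antheridia than in wild type archegonia without overlap, at 1048 ± 302 against 1981 ± 368 CPM, while mutant antheridia and mutant archegonia overlapped. Pp3c14_20550 had 1372, 1662 and 1509 CPM in the mutant antheridia, 1616, 1520.3 and 1394 CPM in the wild type antheridia, 828, 1286 and 990.0 CPM in the mutant archegonia and 1291, 1452 and 829 CPM in the wild type archegonia. It leaned the other way, and mutant antheridia did not overlap with mutant archegonia, at 1514 ± 146 against 1035 ± 232 CPM (SD, n = 3 each).

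Among the other 7 of the 10 genes with the highest minimum, Pp3c7_1360 was at 672, 764 and 503 CPM in the mutant antheridia, 685, 731 and 592 CPM in the wild type antheridia, 1024, 752 and 1105 CPM in the mutant archegonia and 684, 802 and 900.0 CPM in the wild type archegonia. Pp3c7_22100 was at 524, 817 and 629 CPM in the mutant antheridia, 786, 479 and 781 CPM in the wild type antheridia, 598, 543 and 1025 CPM in the mutant archegonia and 629, 772 and 747 CPM in the wild type archegonia. The first had its highest mean in mutant archegonia, while the second overlapped between every pair of groups. Their highest library was 2.19 and 2.14 times their lowest. Pp3c18_8100 had 912, 806 and 2227 CPM in the mutant antheridia, 701, 2926 and 887 CPM in the wild type antheridia, 2014, 2082 and 543 CPM in the mutant archegonia and 2139.8, 1505 and 967 CPM in the wild type archegonia, with group means of 1315 to 1546 CPM around libraries that overlapped in all groups. Pp3c11_23110 had 1002, 607 and 1538 CPM in the mutant antheridia, 1225, 1771 and 627 CPM in the wild type antheridia, 1061, 1842 and 878 CPM in the mutant archegonia and 1305, 1105 and 582 CPM in the wild type archegonia. It was lowest in wild type archegonia 3 and mutant antheridia 2, and no group stood apart. Pp3c7_6560 had 1551, 667 and 1617 CPM in the mutant antheridia, 524, 1345 and 1807 CPM in the wild type antheridia, 2829, 1921 and 553 CPM in the mutant archegonia and 1386, 1038 and 1973 CPM in the wild type archegonia, low in mutant antheridia 2, wild type antheridia 1 and mutant archegonia 3. For Pp3c11_23110, Pp3c18_8100, Pp3c7_6560, Pp3c23_15870 and Pp3c12_13360 the ratio of the highest to the lowest library was 3.16, 5.39, 5.4, 8.57 and 10.2, although their group means were within a ratio of 1.1 to 1.61. The 10 genes together held 21.1% of the counts of the 200, and the top 50 held 46.7%.

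The 200 genes held a like share of the counts in all groups, which is a description, since the choice limited their group means. They made up 8.22%, 7.97% and 9.62% of the counts of mutant antheridia, against 9.04%, 9.42% and 9.24% in wild type antheridia. They made up 9.36%, 9.39% and 10.2% in mutant archegonia, against 8.61%, 9.78% and 9.17% in wild type archegonia. The means were 8.61 ± 0.892%, 9.23 ± 0.191%, 9.64 ± 0.460% and 9.19 ± 0.586% in the same order (SD, n = 3 each). Mutant and wild type libraries overlapped in both organs, and the Wilson 95% interval of a library's share was at most 0.0262 percentage points wide, which covers counting error only. Fewer cells of a type and less RNA per cell cannot be told apart in such pooled organs. Without the 3 libraries with few detected genes the shares ran over 8.22% to 9.78%. With TMM-adjusted totals, an alternative chosen after seeing the data, mutant antheridia were at 8.33%, 9.54% and 11.3%. Wild type antheridia were then at 8.74%, 9.43% and 9.83%. Mutant archegonia were at 8.27%, 9.38% and 9.74%, against 8.00%, 8.94% and 8.74% in wild type archegonia. Mutant antheridia, with the lowest mean by CPM, thus held the highest library with TMM.

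The 59 equally abundant genes that were not even held a lower mean share in antheridia, which is a description, since they were set apart by their group means. They held 4.17%, 4.0% and 4.50% of the counts in mutant antheridia, against 5.80%, 5.42% and 6.71% in mutant archegonia. In wild type antheridia they held 4.05%, 4.85% and 4.85%, against 5.42%, 5.60% and 8.30% in wild type archegonia. The organs did not overlap in either genotype by these shares, but they did with TMM-adjusted totals, an alternative chosen after seeing the data. Then mutant antheridia were at 4.23%, 4.79% and 5.27%, against 5.12%, 5.41% and 6.42% in mutant archegonia. Wild type antheridia were at 3.92%, 4.85% and 5.15%, against 5.04%, 5.11% and 7.91% in wild type archegonia. The 3 of them with the highest minimum were Pp3c13_6860, Pp3c1_28390 and Pp3c23_8320. Pp3c1_28390 had 2213, 1094 and 978 CPM in the mutant antheridia, 953, 654 and 699 CPM in the wild type antheridia, 3637, 3435 and 2719 CPM in mutant archegonia and 4639.8, 1975 and 6379 CPM in wild type archegonia, a group ratio of 5.63, and within each genotype every archegonium library was above every antheridium library. Pp3c13_6860 had 5567, 1444 and 4585 CPM in the mutant antheridia and 1874, 3286 and 11036 CPM in the wild type antheridia. It had 7132, 8456 and 3144 CPM in the mutant archegonia and 3339, 3471 and 20133.5 CPM in the wild type archegonia. Its group ratio was 2.32, with organs that overlapped in both genotypes and wild type archegonia 3 the highest of all libraries. For Pp3c23_8320 the group ratio was 2.04.

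**Figure D2:**
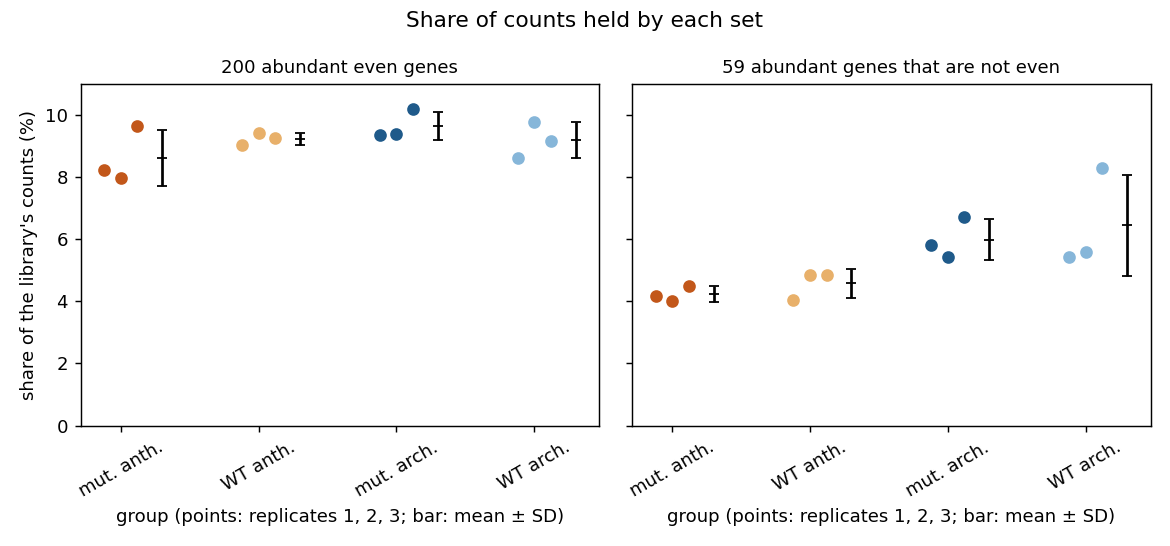
The y axis gives the percent of a library's counts held by the 200 abundant even genes (left) and by the 59 abundant genes that are not even (right), with 1 point per library in 4 groups, and the mean ± SD of 3 libraries beside them. The even genes, kept by the limit on their group means, lie at 7.97% to 10.2% in all 12 libraries. The other genes, set apart by that limit, lie at 4.0% to 4.85% in antheridia and 5.42% to 8.30% in archegonia, which overlap with TMM-adjusted totals.

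Within the limit of 2, the group ratio of the 200 genes had a median of 1.53 and quartiles of 1.33 and 1.69. It was under 1.5 in 94 genes. The most even gene was Pp3c11_18810, with 435, 405 and 469.7 CPM in the mutant antheridia, 455, 394 and 399 CPM in the wild type antheridia, 475, 373 and 463 CPM in the mutant archegonia and 443, 474 and 406 CPM in the wild type archegonia. Its group ratio was 1.06, and its highest library was 1.27 times its lowest, with no group apart from the others. Pp3c20_18840 had 311, 332 and 256 CPM in the mutant antheridia, 246, 291 and 298 CPM in the wild type antheridia, 261, 241 and 308 CPM in the mutant archegonia and 296, 310.2 and 293 CPM in the wild type archegonia, with a group ratio of 1.11 and a library ratio of 1.38. Pp3c10_20740 had 257, 309 and 282 CPM in the mutant antheridia, 238, 285 and 283 CPM in the wild type antheridia, 289.8, 240.4 and 370.4 CPM in the mutant archegonia and 296, 300.2 and 269 CPM in the wild type archegonia, and here mutant archegonia 3 was the highest of all libraries. Pp3c20_5640, with one of the 3 smallest spreads between replicates, had 184, 194 and 152 CPM in the mutant antheridia, 209.6, 205 and 197 CPM in the wild type antheridia, 184, 156 and 153 CPM in the mutant archegonia and 226, 213 and 173 CPM in the wild type archegonia. By CPM the mutant libraries lay below the wild type ones in antheridia, closest at mutant antheridia 2 and wild type antheridia 3. The TMM factors of these libraries were 0.835 and 0.941, and with them the order of their levels turned round.

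The 5 least even of the 200 genes were picked by the gap between their group means, which favours groups that do not overlap. As a description, 4 of them had wild type organs that did not overlap. Of the 27889 genes with a count, 11.5% were higher and 15.8% lower in wild type antheridia without overlap. Pp3c1_12850 had 409, 1207 and 778 CPM in the mutant antheridia, 509, 501 and 677 CPM in the wild type antheridia, 543, 353 and 396 CPM in the mutant archegonia and 339.7, 359 and 499.8 CPM in the wild type archegonia, highest in mutant antheridia 2 and with all groups overlapping except wild type antheridia, which were above wild type archegonia. Pp3c15_4270 had 799, 379 and 274 CPM in the mutant antheridia, 677, 561 and 341 CPM in the wild type antheridia, 279, 216 and 298 CPM in the mutant archegonia and 378, 241 and 296 CPM in the wild type archegonia. Antheridia had the higher mean in both genotypes, the library labelled mutant antheridia 1 was the highest of all, and the organs overlapped in both genotypes. Pp3c18_20180 was lower in wild type antheridia than in wild type archegonia without overlap, at 249 ± 7.65 against 456 ± 142 CPM. It was also the only one of the 5 with genotypes that did not overlap, in antheridia, at 465, 269.9 and 338 CPM in the mutant against 240.4, 254 and 253 CPM in wild type. Pp3c18_18670 was higher in wild type antheridia than in wild type archegonia, at 907 ± 142 against 624 ± 62.8 CPM. Pp3c9_19720 averaged 378 ± 114 CPM in mutant antheridia against 229.7 ± 117 CPM in mutant archegonia, and 325 ± 23.1 against 189.7 ± 75.6 CPM in wild type (SD, n = 3 each).

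Mutant antheridia had the lowest mean of the 4 groups in 74 of the 200 genes and the highest in 31. Wild type antheridia were lowest in 63 and highest in 46. Mutant archegonia were highest in 64 and lowest in 35, and wild type archegonia were highest in 59 and lowest in 28. In CPM the means of antheridia were lower than those of archegonia in 133 of 200 genes in the mutant, with a median log2 ratio of -0.19, and in 121 of 200 in wild type, with a median of -0.08. This lean was shared with the other genes, and it turned round with the scaling. Over 13749 genes above 1 CPM in every library the medians were -0.28 and -0.14. When the library totals were adjusted by TMM, which sets a factor per library from the bulk of the genes, the medians of the 200 were 0.07 in the mutant and 0.04 in wild type, with 119 and 114 genes higher in antheridia, while those of the 13749 genes were -0.03 in both.

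The genotype leans also moved with the scaling. In antheridia 88 of the 200 genes were higher and 112 lower in the mutant than in wild type by CPM, with a median log2 ratio of -0.05, against 113 higher and 87 lower with TMM, at a median of 0.10. Over the 13749 genes the median was -0.07 by CPM and 0.08 with TMM. In archegonia 102 were higher and 98 lower in the mutant by CPM, at a median of 0.01, against 111 higher and 89 lower with TMM, at 0.03. Without the library labelled mutant antheridia 1, 90 genes were higher and 110 lower in mutant antheridia by CPM. Without mutant archegonia 3, 79 genes were higher and 121 lower in mutant archegonia, at a median of -0.13.

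Libraries that did not overlap between groups were counted next, as a description, since the choice used these levels. In antheridia 10 of the 200 genes were higher and 14 lower in all mutant libraries than in all wild type libraries, where 2.46% and 6.39% of the 27889 genes with a count were. In archegonia 5 were higher and 12 lower in the mutant, against 2.21% and 5.27% of all genes. Between antheridia and archegonia of the mutant 2 were higher and 6 lower in antheridia, against 7.39% and 9.92%. In wild type 14 were higher and 22 lower in antheridia, against 11.5% and 15.8%. Nothing is read from these counts, because genes with large gaps between groups were left out by the choice.

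In edgeR's quasi-likelihood fit of all 12 libraries, 0 of the 200 genes had a Benjamini-Hochberg adjusted p under 0.05 in any comparison, as a description, since the choice used the same group means. For mutant against wild type antheridia the percentage of all 22792 genes called was 0.0132%, and for mutant against wild type archegonia it was 0%. For antheridia against archegonia it was 8.07% in the mutant and 2.95% in wild type, and for the interaction of genotype and organ it was 0%. Of the 200 genes, 5, 2, 6, 5 and 1 had an unadjusted p under 0.05 in this order of comparisons, against 1913, 257, 4812, 3298 and 961 of all genes. These were 2.5%, 1.0%, 3.0%, 2.5% and 0.50% of the 200, against 8.39%, 1.13%, 21.1%, 14.5% and 4.22% of all genes. The smallest edgeR adjusted p among them was 0.164, for antheridia against archegonia of the mutant. The median absolute log2 fold change of the 200 was 0.26, 0.23, 0.25 and 0.30 in the first 4 comparisons, against 0.54, 0.36, 0.66 and 0.59 over all genes. Their median standard error was 0.42 in each, against 0.66 to 0.67 over all genes. These comparisons share groups of libraries with each other. The counts over all genes moved with single libraries, while 0 of the 200 were called in each case. Without the library labelled mutant antheridia 1, 159 genes were called between mutant and wild type antheridia and 16 for the interaction, in place of 3 and 0, and without any other library the first count was 0 or 1. Between the organs of the mutant 1840 genes were called, against 843 without mutant archegonia 1 and 1096 without mutant archegonia 3. Between those of wild type 672 were called, against 397 and 289 without wild type antheridia 2 and 3, and 211 and 208 without wild type archegonia 1 and 2. With the 3 libraries with few detected genes left out, this count was 2270. Between mutant and wild type archegonia 1 gene in place of 0 was called when mutant antheridia 2 was left out.

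Other tests called a few of the 200 between the organs. The DESeq2 Wald test called 2 of them in the mutant, both higher in antheridia, where 11.8% of all genes were called. It called 2 in wild type, 1 in each direction, where 6.01% were called. It called 0 of the 200 between genotypes in antheridia, in archegonia and for the interaction, where 0.841%, 0.04% and 0.214% of all genes were called. With limma-voom 8 were called between organs in wild type, 3 higher and 5 lower in antheridia, where 13.4% of all genes were. It called 0 of the 200 between the organs of the mutant, where 6.23% of all genes were called. It also called 0 between genotypes in antheridia, in archegonia and for the interaction, at 0%, 0.0176% and 0% of all genes. The authors' deposited table of antheridia against archegonia in wild type called 7 of the 200, 1 higher and 6 lower in antheridia, and 12.9% of its genes. Their smallest adjusted p values on either side, by which the next 2 genes were chosen after their values were seen, belonged to Pp3c20_21140 and Pp3c7_650. In the authors' deposited table Pp3c20_21140 had a log2 fold change of 0.95 with a DESeq2 adjusted p of 0.0023. Its levels were 811, 704 and 638 CPM in the mutant antheridia, 938, 695 and 709 CPM in the wild type antheridia, 479, 429 and 888 CPM in the mutant archegonia and 428, 453 and 397 CPM in the wild type archegonia, so that the organs did not overlap in wild type and overlapped in the mutant through mutant archegonia 3. In the authors' deposited table Pp3c7_650 had a log2 fold change of -0.88 with a DESeq2 adjusted p of 0.0128. It had 315, 301 and 329 CPM in the mutant antheridia, 229, 268 and 217 CPM in the wild type antheridia, 551, 586 and 255 CPM in the mutant archegonia and 491, 403 and 526 CPM in the wild type archegonia, and again only mutant archegonia 3 of the archegonium libraries fell within the range of antheridia. The authors' deposited table over both genotypes called 12 of the 200, all higher in antheridia, and 14.8% of its genes. The authors' deposited table for the mutant organs called 0 of the 200 and 7.56% of its genes. Their tables of mutant against wild type called 0 of the 200 in antheridia, in archegonia and over both organs, where 0.0715%, 0.0665% and 0% of genes were called. These are shares of the 20989, 18049 and 1643 genes that had an adjusted p there, so the last covers far fewer genes.

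Even group means did not mean even libraries. The ratio of the highest to the lowest of the 12 libraries is a description too, since the choice ranked genes by their lowest library and limited their group means. It had a median of 2.80 over the 200 genes, with quartiles of 2.20 and 3.71. It was under 2 in 33 genes, under 3 in 115 and 10 or more in 4. Of the 33 genes within 2-fold in all libraries, 5 were among the 50 with the highest minimum and 13 among the 50 with the lowest. In the 6 wild type libraries alone 115 of the 200 genes were within 2-fold, with a median ratio of 1.87. Without the 3 libraries with few detected genes 72 genes were within 2-fold, and without the library labelled mutant antheridia 1 there were 41. Fewer libraries give a smaller ratio by construction. The narrowest gene outside those described above, chosen after its values were seen, was Pp3c23_18300. It had 177, 173 and 147 CPM in the mutant antheridia, 199, 209.8 and 171 CPM in the wild type antheridia, 144, 144 and 184 CPM in the mutant archegonia and 176, 205 and 170.0 CPM in the wild type archegonia, a library ratio of 1.46.

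The choice was repeated with each replicate number left out, and the genes were then read in the 4 libraries that had no part in it, 1 per group. With replicate 1 left out, 109 of the 200 genes so chosen were within 2-fold over the 4 libraries, at a median ratio of 1.88. With replicate 2 left out there were 103, at a median of 1.96, and with replicate 3 left out there were 97, at a median of 2.03. Genes with at least the same minimum that had not been chosen were within 2-fold in 19 of 92, 24 of 136 and 22 of 140 cases. Their medians were 3.01, 3.41 and 3.41. Of all genes with a count, 20.8%, 16.7% and 12.7% were within 2-fold. Of the genes chosen in these rounds, 171, 151 and 147 were among the 200. A single library per group is set against another here, so these ratios hold the spread between replicates as well as any difference between groups.

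**Figure D3:**
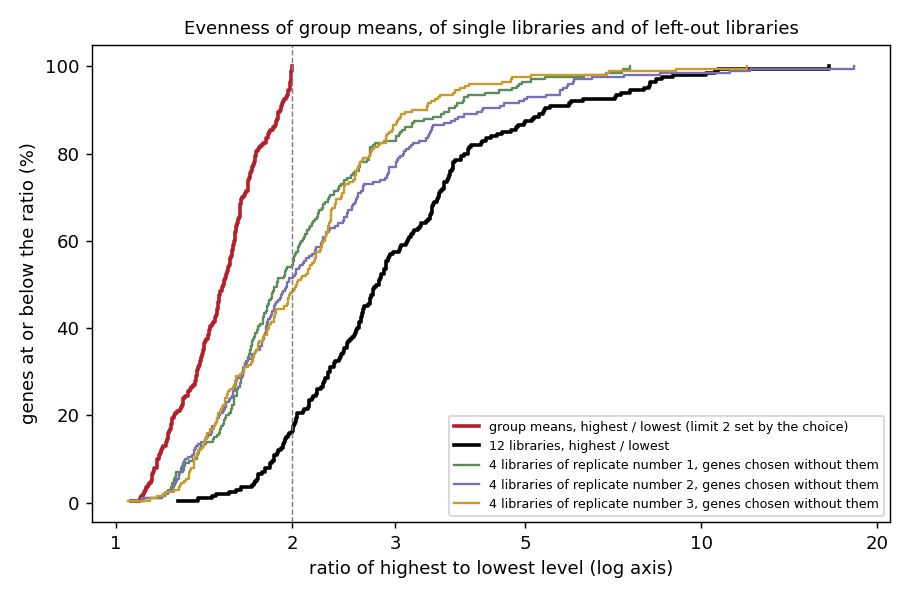
The x axis is the ratio of the highest to the lowest level on a log axis and the y axis the percent of 200 genes at or below it. The line for group means ends at the limit of 2 that the choice set, the line for 12 single libraries has its median at 2.80, and the lines for the libraries left out of the choice have medians of 1.88, 1.96 and 2.03.

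The spread between replicates differed widely from gene to gene. The SD of log2(CPM + 1) between replicates, pooled over the 4 groups, had a median of 0.42 in the 200 genes, and ran from 0.14 to 1.35. The choice bears on these values, since it ranked genes by their lowest library. The median was 0.60 in the 59 abundant genes that were not even, 0.58 in genes above 1 CPM in every library and 0.66 in all genes tested. By group, the 200 genes were at 0.50 against 0.68 for genes above 1 CPM in mutant antheridia, and at 0.26 against 0.42 in wild type antheridia. In mutant archegonia it was 0.41 against 0.51, while in wild type archegonia both medians were 0.30. The largest spread was that of Pp3c9_5910, with 2021, 796 and 342 CPM in the mutant antheridia, 1063, 805 and 504 CPM in the wild type antheridia, 956, 2237 and 135 CPM in the mutant archegonia and 1752, 444 and 1224 CPM in the wild type archegonia. Its libraries differed 16.5-fold from mutant archegonia 3 to mutant archegonia 2, while its group means had a ratio of 1.44. Pp3c23_15870 had 2212, 508 and 3058 CPM in the mutant antheridia, 633, 2331 and 3564 CPM in the wild type antheridia, 4351, 4318 and 608 CPM in the mutant archegonia and 1311, 1674 and 3629 CPM in the wild type archegonia. It was low in mutant antheridia 2, mutant archegonia 3 and wild type antheridia 1, and its group ratio was 1.61. Pp3c11_14880 had 574, 994 and 175 CPM in the mutant antheridia, 1426, 339 and 1258 CPM in the wild type antheridia, 194, 720.0 and 1365 CPM in the mutant archegonia and 267, 304 and 1226 CPM in the wild type archegonia, lowest in mutant antheridia 3 and mutant archegonia 1 and highest in wild type antheridia 1. The gene with the third most even group means, Pp3c12_13360, had 1264, 498 and 5079 CPM in the mutant antheridia, 2121, 2156 and 1929 CPM in the wild type antheridia, 1393, 1389 and 3684 CPM in the mutant archegonia and 1360.0, 3737 and 1486 CPM in the wild type archegonia. Its means were within a ratio of 1.10, although mutant antheridia 3 was 10.2 times mutant antheridia 2.

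**Figure D4:**
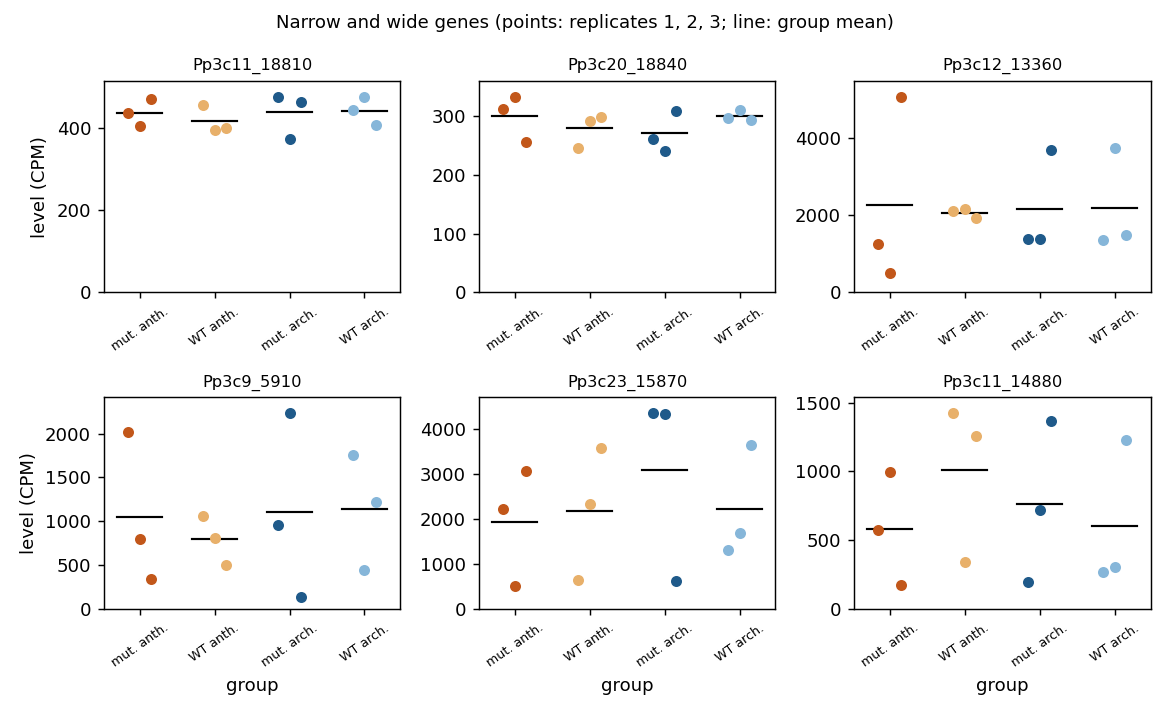
The y axis of each panel is the level in CPM, starting at 0, with 1 point per library in the 4 groups and a line at each group mean. Pp3c11_18810 and Pp3c20_18840 are level within 1.27-fold and 1.38-fold over all libraries, while Pp3c12_13360, Pp3c9_5910, Pp3c23_15870 and Pp3c11_14880 have group means within ratios of 1.10 to 1.73 and libraries that differ 8.13-fold to 16.5-fold.

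Replicates of the mutant were spread more widely than those of wild type. Within a group, the SD of a gene's CPM was a median of 34.8% of its mean in mutant antheridia against 18.7% in wild type antheridia, and 28.8% in mutant archegonia against 20.6% in wild type archegonia. The median SD on the log2(CPM + 1) scale over the 200 genes was 0.50 in mutant antheridia against 0.26 in wild type antheridia, and 0.41 in mutant archegonia against 0.30 in wild type archegonia. The spread was larger in the mutant for 162 of the 200 genes in antheridia (81.0%) and for 139 in archegonia (69.5%). This was shared with other genes: among those above 1 CPM in every library it was larger in the mutant for 72.4% in antheridia and 72.6% in archegonia. In archegonia the excess came with 1 library. From mutant archegonia 1 and 2 alone the median SD was 0.21, and from the pairs of wild type archegonia it was 0.22 to 0.31. In antheridia every pair of mutant libraries gave 0.39 to 0.43, against 0.20 to 0.21 for the pairs of wild type antheridia. Each of these mutant pairs held mutant antheridia 2 or 3, which had few detected genes, and 2 of the 3 pairs held the library labelled mutant antheridia 1. The part of this in the spread was not tested. The SD was 0.5 or more in 100 genes in mutant antheridia, 35 in wild type antheridia, 85 in mutant archegonia and 38 in wild type archegonia.

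Single libraries set the extremes of many genes. Mutant archegonia 3 was the highest of the 12 libraries for 44 of the 200 genes and the lowest for 13. The library labelled mutant antheridia 1 was the lowest for 40 and mutant antheridia 3 for 38, while the wild type libraries were the lowest for 3 to 19 genes each. In mutant archegonia 3, 32 genes were at least 2-fold above the mean of the other mutant archegonia and 21 at least 2-fold below it. The library labelled mutant antheridia 1 had 14 above and 26 below by this measure, mutant antheridia 2 had 20 and 26, and mutant antheridia 3 had 25 and 21. Mutant archegonia 2 had 7 and 22, mutant archegonia 1 had 4 and 5, and each wild type library had at most 8 above and 11 below. With each gene centred on its group means, the first principal component of the 200 genes held 36.9% of the remaining variance, against 30.4% for all genes above 1 CPM in every library. Its loadings were 0.60 for mutant archegonia 3, -0.44 for mutant archegonia 2 and -0.42 for the library labelled mutant antheridia 1, and between -0.08 and 0.06 for the wild type antheridia. Wild type archegonia 1, 2 and 3 had loadings of -0.07, 0.30 and -0.23. Mutant archegonia 1 had -0.16, and mutant antheridia 2 and 3 had 0.19 and 0.23. Mutant archegonia 3 was among the libraries with few detected genes, and the part of this in the deviations was not tested.

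**Figure D5:**
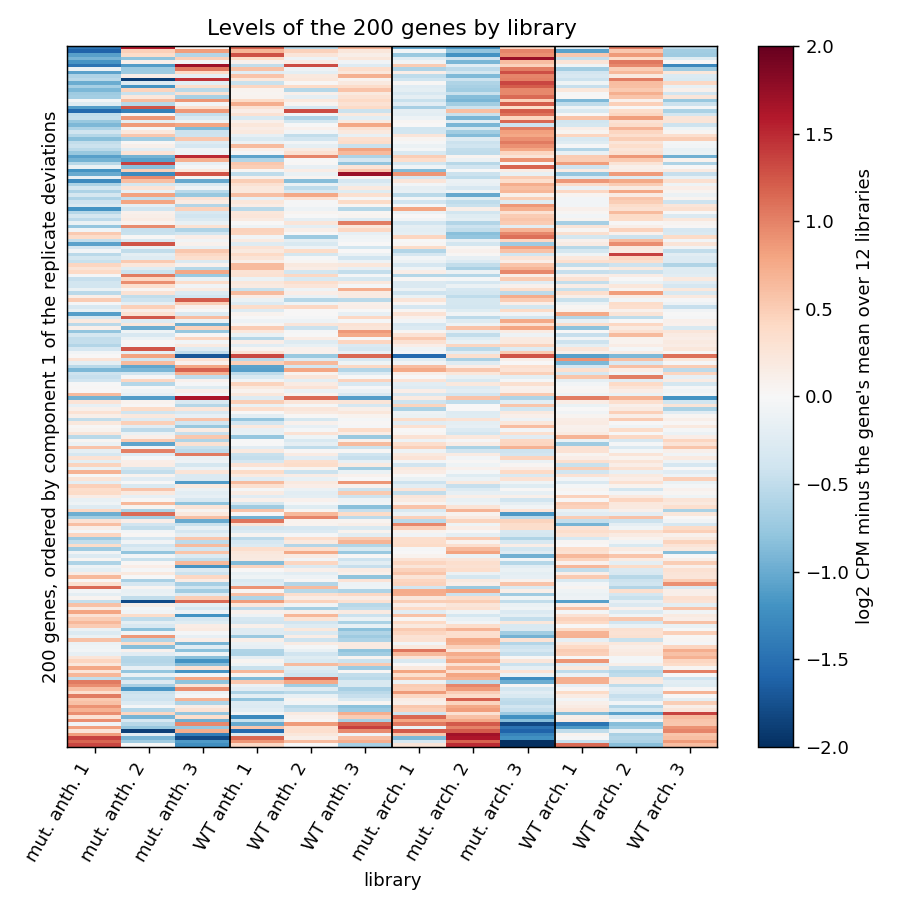
Rows are the 200 genes, ordered by their score on the first component of the replicate deviations, and columns are the 12 libraries by group. Colour is log2 CPM minus the gene's mean over the libraries, cut at 2 on either side, and mutant archegonia 3 is high in the upper rows and low in the lowest rows, opposite to mutant archegonia 2.

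Some of the genes with the widest spread moved together across replicates. Among the 20 with the largest spread, chosen after their values were seen, 25 of 190 pairs had a correlation of their deviations from the group means over 0.7, and 14 had one under -0.7. Over all 19900 pairs of the 200 genes the shares were 5.93% and 4.77%. Among pairs of the 59 abundant genes that were not even, 9.23% were over 0.7. The correlations are over 12 libraries that share group means, and are given as a description. The closest pair was Pp3c13_14980 and Pp3c11_7910, at 0.98. Pp3c13_14980 had 208, 264 and 1863 CPM in the mutant antheridia, 406, 1418 and 480.3 CPM in the wild type antheridia, 815, 491 and 789 CPM in the mutant archegonia and 538, 1118 and 234 CPM in the wild type archegonia. Pp3c11_7910 had 163, 180.0 and 969.9 CPM in the mutant antheridia, 166, 679 and 224 CPM in the wild type antheridia, 485, 359 and 414 CPM in the mutant archegonia and 490.4, 630.1 and 177 CPM in the wild type archegonia, and both genes were highest in mutant antheridia 3 and next highest in wild type antheridia 2. Pp3c23_15870 and Pp3c7_6560 followed at 0.96, with Pp3c10_12250 at 0.94 to Pp3c23_15870. All 3 were at 292 to 608 CPM in mutant archegonia 3 and at 1921 to 4351 CPM in the other mutant archegonia. Pp3c4_880 and Pp3c7_8990, at 0.94, were highest in mutant archegonia 2, at 2059 and 1896 CPM, and at 195 and 237 CPM in mutant archegonia 3.

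The genes were spread over the genome. In the naming of the moss genome the number after Pp3c is that of the chromosome, and all 27 such prefixes held at least 1 of the 200 genes. The counts ran from 1 of 420 listed genes on Pp3c27 to 14 of 1197 on Pp3c9 and 14 of 1116 on Pp3c20. As shares of the listed genes they ran from 0.197% on Pp3c21 to 1.25% on Pp3c20, against 0.607% of all genes. A single gene of the 200 lay on a prefix of the other kind, Pp3s, which held 692 genes. Next to each other in the sorted identifiers were 2 pairs. Pp3c18_14470 and Pp3c18_14481 had deviations from their group means that correlated at 0.83 over 12 libraries, and Pp3c10_8450 and Pp3c10_8460 at -0.36. Without an annotation, reads of overlapping genes or near-identical copies cannot be told apart, so a level may include reads of another gene.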

How the data were processed

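Whole-number read counts per gene for 12 libraries were deposited by the authors. Per the submitters' processing notes, Trim Galore 0.6.6, cutadapt 2.10, HISAT2 2.1.0 and DESeq2 2.11.40.6 were used. The build, the annotation and the counting settings were not given in the sources used here. Comparison tables deposited by the authors hold log2 fold changes and p-values, raw and adjusted.

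CPM was the count divided by the column sum, times 1000000. The 200 genes, the lists and the tests were chosen with earlier results of these data known. Named genes were those with the highest minimum (10), the lowest and highest group ratio (5 each), the smallest and largest spread (3 each) and those next to the thresholds (3 each), with 3 abundant uneven genes. Pp3c10_24880 was named as a candidate for the targeted gene, and the 2 pairs of genes next to each other for their identifiers. For any other gene the text states that it was picked by its values. Tests used edgeR 4.0.16 in R 4.3.3 (TMM, filterByExpr, robust non-legacy quasi-likelihood fit of 4 group means, Benjamini-Hochberg over 22792 genes), with DESeq2 1.42.0 and limma 3.58.1 as alternatives. The scripts were tested on simulated data. Titles call the libraries biological replicates but name no separate cultures, and p-values measure only how far these libraries differ, which may be technical. Between replicates, chi-square per degree of freedom over the 200 genes was at least 783, so none was counted as a repeat sequencing of another library. This measure takes in read sampling only, and it cannot tell separate organ pools from separate libraries of 1 pool. Product families and organ markers were not used.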

Additional observations from a re-analysis of the deposited data

How the results depend on the processing

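Of the 200 genes, 175 were chosen again with TMM totals and 172 with DESeq2 size factors, 153 with group medians, 143 when ranked by the mean, 167 at a limit of 3 and 135 without the 3 libraries with few detected genes. At a limit of 1.5 it was 94, which follows from the stricter limit. With a library or replicate number left out, 147 to 192 were chosen again, the fewest without replicate 3. The median share of counts held by the chosen genes was 9.30%, against 5.80% at the limit of 1.5, 11.5% at 3, 7.34% with group medians, 10.5% when ranked by the mean and 7.68% without the 3 libraries. With single libraries or replicate numbers left out it was 6.65% to 10.6%. Beyond that, the cause was not tested.

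The count of 0 called genes among the 200 held in every comparison with DESeq2 size factors in edgeR, the legacy fit, no filter on low counts, the totals of the 200 genes as library sizes, each library left out and, for all but the interaction, only the 2 groups compared. It also held without the 3 libraries, where the lone mutant antheridium library, the one that went against its label at Pp3c10_24880, is assumed to vary like the other groups. Exceptions were the DESeq2 Wald test, with 2 in the mutant and 2 in wild type, and limma-voom, with 8 in wild type, all between organs. Over all genes the main counts of 3, 0, 1840, 672 and 0, in the order of the report, were 189, 9, 2658, 1298 and 48 with DESeq2, 0, 4, 1421, 3050 and 0 with limma-voom, and 0, 0, 951, 343 and 0 with the legacy fit. Same-numbered libraries had deviations that correlated between -0.46 and 0.23, over genes above 1 CPM in every library, and between -0.51 and 0.44 over the 200 genes, so the numbers were not taken to pair the libraries. With the replicate number as a block, 0 of the 200 were called, and 1, 0, 1209, 496 and 0 of all genes. At a limit of 3 on the left-out libraries, 166 and 173 genes were within it for replicates 1 and 3, against 109 and 97. The gap between the highest antheridium and the lowest archegonium share of the 59 abundant uneven genes was -0.914 points in the mutant and -0.572 points in wild type, and 0.147 and 0.116 points with TMM, where the organs overlap. The median replicate spread was 0.41 to 0.44 under its alternatives, against 0.42. Counting error of the reads was small for the 200 genes, which leaves out error from making the libraries, and 3 libraries per group limited the precision.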

Other observations

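The share of even genes rose with the lowest level over the 12 libraries. Among genes with a minimum of 0.1 to 1 CPM over the 12 libraries 23.8% were even, among those of 1 to 10 CPM 46.3%, among those of 10 to 100 CPM 71.8% and among 441 genes above 100 CPM 77.3%. A gene low in any group falls among the low minima whatever its other levels, so part of this rise is built into the measure. Low levels also carry more counting error, and its part in this rise was not tested.

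The order of the 200 genes by level, compared between libraries with Spearman correlations across genes, which are not independent replicates, was kept only in part. Over the 12 pairs of libraries of the same group the correlations ran from 0.34 to 0.83, with a median of 0.66. Over the 54 pairs from different groups they ran from 0.25 to 0.82, with a median of 0.60. With the library labelled mutant antheridia 1 left out, 180 of the 200 genes still had group means within the limit of 2, and without mutant archegonia 3 it was 176.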
